A study of Homo sapiens with 12 samples.

Results

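The genes described here are 8 established targets of the transcriptional coactivator YAP or of the transcription factor SRF, taken by symbol from the deposited count table, where all 8 were found among 53717 genes. They are CYR61, CTGF, ANKRD1, AMOTL2 and LATS2, usually counted as YAP targets, and TAGLN, ACTA2 and TPM1, usually counted as SRF targets. The choice of the genes used no threshold on their measured values, but it was made with earlier results of these data known. Levels came from H9, a line of human embryonic stem cells in wide use, grown in RSeT medium, which is meant to keep such cells in a naive-type state. In the ASO-L1 group the cells received an antisense oligonucleotide against LINE1 RNA, the transcript of an abundant retrotransposon family. In the sO-L1 group they received the matching sense oligonucleotide, and in the ASO-Ctr group an antisense oligonucleotide with no specific target. Each group had 4 libraries, 12 in all. All groups shared the fluorescein label on the oligonucleotide, its dose of 25 nM, lipofection, 0.7 uM trans-ISRIB, 5 uM emricasan and 10 uM Y-27632 for the first 24 h, and sorting of fluorescent cells at 48 h. Y-27632 inhibits the ROCK kinases, which act on actin and myosin, so every group, controls included, had been exposed to it before it was withdrawn. All libraries come from the same cell line and from cells that had taken up oligonucleotide, and the amount of LINE1 RNA was not analysed here.

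YAP and its paralog TAZ (gene WWTR1) carry no DNA-binding domain and act on promoters and enhancers through TEAD proteins. The Hippo kinases STK3 and STK4 activate LATS1 and LATS2, which phosphorylate YAP and TAZ and keep them out of the nucleus, and some target genes, LATS2 and AMOTL2 among them, encode proteins that restrain YAP in turn. SRF binds CArG boxes and is switched on in part by MRTF coactivators (genes MKL1 and MKL2), which monomeric actin holds in the cytoplasm, so that actin assembly releases them. Both pathways respond to cell shape, adhesion and tension, and in human embryonic stem cells YAP activity bears on survival and on the balance between naive and primed states.

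Promoter sequences are shown for the 4 members counted as YAP targets that had an annotated promoter window. In the window shown, each holds the hexamer GGAATG, or its reverse complement CATTCC, which matches the core of the motif bound by TEAD proteins. ACTA2, which is not shown, holds the hexamer too. Each window runs from 250 bases before to 50 bases after the annotated start, is written 5′ to 3′ in the direction of transcription, and has the hexamer in capitals. The sequences are from RefSeq on GRCh38.p14, at chr6:131951323-131951622 for CTGF, chr10:90921038-90921337 for ANKRD1, chr3:134374398-134374697 for AMOTL2 and chr13:21061537-21061836 for LATS2, all on the minus strand.
CTGF: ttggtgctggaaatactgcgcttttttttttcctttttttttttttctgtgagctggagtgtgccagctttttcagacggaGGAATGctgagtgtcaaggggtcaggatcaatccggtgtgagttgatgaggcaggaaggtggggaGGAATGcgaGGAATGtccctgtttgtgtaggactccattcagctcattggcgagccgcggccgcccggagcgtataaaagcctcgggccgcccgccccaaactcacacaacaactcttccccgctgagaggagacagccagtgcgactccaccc
ANKRD1: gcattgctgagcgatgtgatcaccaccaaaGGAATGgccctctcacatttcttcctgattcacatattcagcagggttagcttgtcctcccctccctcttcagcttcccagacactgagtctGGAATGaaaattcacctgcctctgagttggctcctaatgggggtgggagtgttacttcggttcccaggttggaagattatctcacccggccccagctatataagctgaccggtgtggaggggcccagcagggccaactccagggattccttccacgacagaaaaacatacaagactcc
AMOTL2: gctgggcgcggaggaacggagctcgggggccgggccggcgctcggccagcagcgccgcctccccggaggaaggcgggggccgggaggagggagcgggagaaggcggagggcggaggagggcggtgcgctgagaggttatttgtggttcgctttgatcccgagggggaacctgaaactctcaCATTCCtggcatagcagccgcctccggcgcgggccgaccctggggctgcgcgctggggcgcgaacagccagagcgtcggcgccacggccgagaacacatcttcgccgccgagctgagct
LATS2: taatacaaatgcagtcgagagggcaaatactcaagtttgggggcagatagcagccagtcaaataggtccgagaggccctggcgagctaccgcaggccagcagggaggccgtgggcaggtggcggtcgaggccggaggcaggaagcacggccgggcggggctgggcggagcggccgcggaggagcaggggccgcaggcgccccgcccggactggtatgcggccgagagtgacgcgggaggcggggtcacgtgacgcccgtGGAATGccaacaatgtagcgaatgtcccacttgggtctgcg
CTGF held 3 copies, beginning 169, 104 and 95 bases before the start, and ANKRD1 held 2, beginning 220 and 128 bases before it. AMOTL2 held 1 copy in the other orientation, 69 bases before the start of the window shown, and 0 copies in the window of its other annotated start. LATS2 held 1 copy, 9 bases after the start. ACTA2 had 1 copy in 1 of its 2 windows, 183 bases before the start, and TPM1 had 0. Windows matched 6 of the 8 members, and CYR61 and TAGLN were not matched. Among all 35116 windows of this length, 14% held the hexamer on either strand, 1.37% held 2 or more copies and 0.128% held 3 or more. A CArG box (CC, 6 bases that are each A or T, then GG) was found in 1.29% of all windows and in 0 of the windows matched to these members. Only this exact pattern was counted, so near matches were missed. The ACTA2 window with the hexamer holds CCCTATATGG, which departs from the pattern by a C among the inner bases. TAGLN, with no window, was not searched. A match of letters is a description of the window and not evidence that a factor binds there.

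Libraries held 22.8 to 55.1 M reads counted in genes. As a floor, 3 reads came to 0.0534 to 0.128 CPM (counts per M reads, with TMM scaling). Where 0 reads are observed, 3 is about the 95% upper limit on the expected count. Below, a gene rose or fell, or was called, where edgeR's quasi-likelihood test gave a Benjamini-Hochberg adjusted p under 0.05 over all 17264 genes tested. Pluripotent cell markers were abundant in every library, with a summed level of 7433 to 8035 CPM in ASO-L1, 8614 to 9252 CPM in sO-L1 and 8861 to 9057 CPM in ASO-Ctr libraries. In ASO-L1 against ASO-Ctr, 4 of these 8 markers fell, where 23.1% of all genes did and 44.3% were called in either direction. DNMT3B fell by the most (log2 fold change -0.51), LIN28A by -0.22, SALL4 by -0.13 and L1TD1 by -0.10. The SALL4 call did not hold in 6 of 16 fits with libraries left out (highest adjusted p = 0.138), and the L1TD1 call in 10 of 16 (0.153), with DESeq2 or without the replicate number. The 10 fibroblast markers summed to 123 to 144 CPM in ASO-L1, 121 to 150 CPM in sO-L1 and 132 to 158 CPM in ASO-Ctr. LUM had 0 reads in all 12 libraries. Of the 6 tested, 3 were called in ASO-L1 against ASO-Ctr (50%, beside 44.3% of all genes). PDGFRA (-0.90) and COL1A2 (-0.73) were lower, while THY1 (0.42) was higher. The 6 smooth muscle markers summed to 18.4 to 23.1 CPM in ASO-L1, 12.3 to 14.4 in sO-L1 and 11.6 to 15.0 CPM in ASO-Ctr. Of the 5 tested, CNN1 was the 1 called in ASO-L1 against ASO-Ctr (20%, beside 44.3% of all genes). In ASO-L1 against sO-L1, 1 was called higher and 1 lower (40%, beside 44% of all genes). LMOD1, CNN1, ACTG2 and DES of that list are also in the list of other SRF/MRTF targets described below. The 4 endothelial markers analysed summed to 9.96 to 39.5 CPM in ASO-L1, 9.20 to 22.9 CPM in sO-L1 and 11.3 to 21.4 CPM in ASO-Ctr libraries. Among them KDR was higher in ASO-L1 against ASO-Ctr (0.38, a call lost in 6 of 16 fits with libraries left out). The KDR call was also lost in edgeR without the replicate number (adjusted p = 0.320) and with only the 2 groups in the fit (0.0769). Limma on the authors' log2 values did not call it either (adjusted p = 0.0773). CDH5 had 0 reads in ASO-L1, 2 in sO-L1 and 1 in ASO-Ctr. The part of these differences in the values below was not tested. RNA came from sorted populations, so a change in the number of expressing cells and a change in RNA per cell cannot be told apart. The labels do not say whether replicates were separate cultures, so p-values measure the spread between these samples, which may be technical.

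Members of both pathways were higher after ASO-L1. All 7 members that entered the test rose against ASO-Ctr, where 21.2% of all genes tested were called higher (44.3% in either direction), and all 7 rose against sO-L1, where 21.1% were (44% in either direction). The size of the rise ranged widely, with ANKRD1 at the top (14.2-fold over ASO-Ctr), TAGLN and AMOTL2 past 2-fold, CYR61, LATS2 and TPM1 below it, and CTGF at 1.09-fold. The 3 members called higher by over 2-fold against ASO-Ctr stand beside 2.48% of all genes, and the same 3 did so against sO-L1, beside 2.29%. In 6 of the 7 all 4 ASO-L1 libraries were above all 4 ASO-Ctr libraries, as in 16.3% of all genes, and in the same 6 above all 4 sO-L1 libraries, as in 16%. The median log2 fold change of the 7 was 0.53 against ASO-Ctr, beside -0.0028 over all genes tested. ANKRD1 entered the test through its ASO-L1 level alone, and ACTA2 did not enter it, so these counts describe the members that passed and not all 8. The members were chosen with earlier results of these data known, so the counts are a description and not a test of the set. The ASO-L1 libraries serve in both comparisons, so the agreement between them is not independent.

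**Figure D1:**
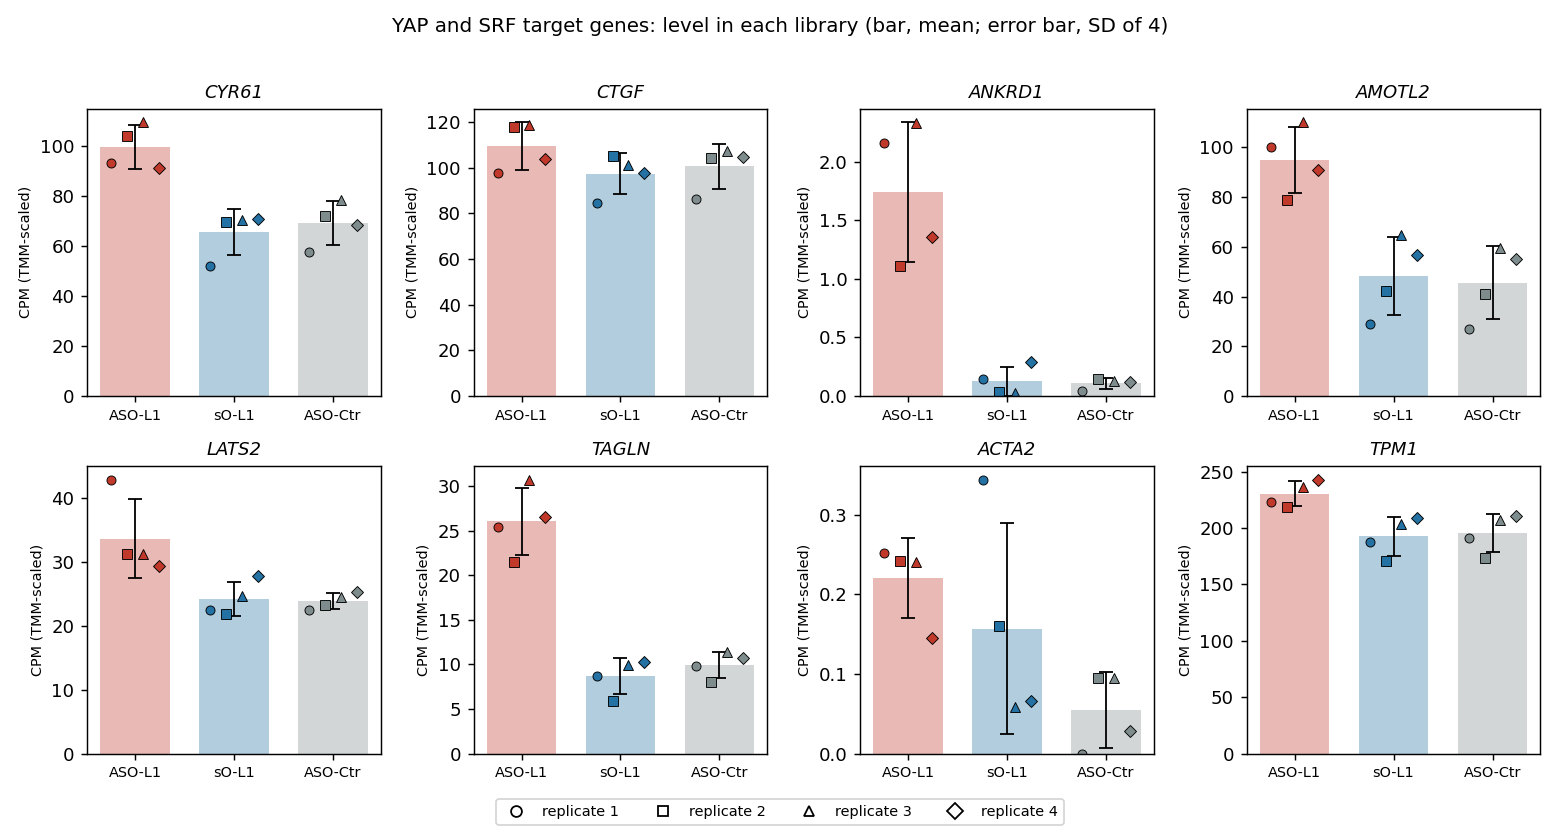
Level of each of the 8 members in CPM (vertical axes, linear from 0, a separate scale for each gene) in the ASO-L1, sO-L1 and ASO-Ctr groups, with bars for the mean, error bars for the SD of 4 libraries and points for single libraries. ANKRD1 stood at 1.11 to 2.34 CPM in ASO-L1 libraries and at most at 0.294 CPM in the others, while CTGF libraries overlapped in all 3 groups.

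CYR61 and CTGF encode secreted matrix-associated proteins of the CCN family that bind integrins, and both are among the most used readouts of YAP activity. CYR61 measured 93.4, 104, 109.6 and 91.2 CPM in ASO-L1 replicates 1 to 4, 52.0, 69.7, 70.3 and 70.8 CPM in sO-L1, and 57.7, 72.1, 78.7 and 68.6 CPM in ASO-Ctr. Every ASO-L1 library lay above every library of both other groups, whose ranges overlapped each other. The mean was 99.6 ± 8.78 CPM in ASO-L1, 65.7 ± 9.14 in sO-L1 and 69.3 ± 8.78 in ASO-Ctr (SD, n = 4 each). CYR61 thus rose 1.44-fold over ASO-Ctr (95% interval 1.32 to 1.58, edgeR adjusted p = 2.73e-06) and 1.52-fold over sO-L1 (1.39 to 1.66, adjusted p = 6.71e-07). Leaving out libraries kept its log2 fold change between 0.47 and 0.58 against ASO-Ctr.

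CTGF behaved otherwise. It measured 97.5, 118, 119 and 104 CPM in ASO-L1 replicates 1 to 4, 84.6, 105, 101 and 97.6 CPM in sO-L1, and 86.1, 104, 107 and 105 CPM in ASO-Ctr. Replicate 1 was the lowest library of each group, and the groups overlapped, with ASO-L1 replicate 4 no higher than ASO-Ctr replicate 4. The means were 109 ± 10.4 CPM in ASO-L1, 97.2 ± 8.97 in sO-L1 and 101 ± 9.71 in ASO-Ctr (SD, n = 4 each). Within a replicate number, ASO-L1 was higher than ASO-Ctr in 3 of 4 pairs and higher than sO-L1 in 4 of 4. The fit with replicate number called a rise of 1.09-fold over ASO-Ctr (1.02 to 1.16, edgeR adjusted p = 0.0354) and of 1.13-fold over sO-L1 (1.05 to 1.20, adjusted p = 0.00534). The call against ASO-Ctr did not hold in 8 of 16 fits with libraries left out (highest adjusted p = 0.170), namely without replicate 2 or 3 of all groups, ASO-L1 replicate 2 or 3, sO-L1 replicate 2, or ASO-Ctr replicate 1, 2 or 3, nor, without the replicate number in the model, at adjusted p = 0.281. It was also lost with no filter on low counts (adjusted p = 0.0973) and with only the 2 groups in the fit (0.0755). The call against sO-L1 was lost without replicate 3 (adjusted p = 0.0655) and without the replicate number (adjusted p = 0.130).

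Of their 4 paralogs in the CCN family, NOV and WISP3 were tested and not called. NOV averaged 0.916 ± 0.121 CPM in ASO-L1, 0.672 ± 0.246 in sO-L1 and 0.567 ± 0.208 in ASO-Ctr (edgeR adjusted p = 0.107 against ASO-Ctr). All 4 ASO-L1 libraries of NOV were above all 4 ASO-Ctr libraries, as in 16.3% of all genes. The margin was narrow (lowest 0.775 CPM against highest 0.763 CPM), and sO-L1 reached 0.911 CPM. WISP3 averaged 0.309 CPM in ASO-L1, 0.349 in sO-L1 and 0.378 in ASO-Ctr (adjusted p = 0.447), and WISP1 and WISP2 had at most 4 reads in any whole group.

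ANKRD1 encodes an ankyrin repeat protein of the nucleus and the sarcomere that is induced by stretch and by YAP. It had 60, 46, 68 and 47 reads in ASO-L1 replicates 1 to 4, 5, 2, 1 and 9 in sO-L1, and 1, 6, 4 and 4 in ASO-Ctr. Those reads correspond to 2.16, 1.11, 2.34 and 1.36 CPM in ASO-L1, 0.143, 0.0356, 0.0294 and 0.294 CPM in sO-L1, and 0.0428, 0.143, 0.126 and 0.116 CPM in ASO-Ctr. All 4 ASO-L1 libraries were several times above any other library, and several sO-L1 and ASO-Ctr libraries were at or below the level of 3 reads. ANKRD1 entered the test only through its ASO-L1 libraries, so its place and rank among the genes tested depend on the group where it was high. The fitted rise was 14.2-fold over ASO-Ctr (7.42 to 27.1, edgeR adjusted p = 3.37e-06), the rise of rank 9 among all genes tested. Over sO-L1 it was 14.5-fold (7.73 to 27.1, adjusted p = 2.24e-06), rank 6. That second value rests on few sO-L1 reads and was 26.0-fold without replicate 4 of all groups and 25.8-fold without sO-L1 replicate 4 alone. Means were 1.74 ± 0.596 CPM in ASO-L1, 0.126 ± 0.124 in sO-L1 and 0.107 ± 0.0442 in ASO-Ctr (SD, n = 4 each), so the gene remained a low one even where it was highest.

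AMOTL2 and LATS2 are the members that feed back on the pathway. AMOTL2, an angiomotin family protein of cell junctions that binds YAP and holds it outside the nucleus, measured 100.1, 78.6, 110.1 and 91.0 CPM in ASO-L1 replicates 1 to 4, 29.1, 42.3, 64.7 and 56.7 CPM in sO-L1, and 26.9, 41.1, 59.4 and 55.1 CPM in ASO-Ctr. The groups did not overlap between ASO-L1 and the others, while sO-L1 and ASO-Ctr libraries of the same number lay close together and differed strongly between numbers, with replicate 1 lowest. The mean was 94.97 ± 13.4 CPM in ASO-L1, 48.2 ± 15.8 in sO-L1 and 45.6 ± 14.7 in ASO-Ctr (SD, n = 4 each). The rise was 2.16-fold over ASO-Ctr (1.76 to 2.63, edgeR adjusted p = 6.58e-06) and 2.05-fold over sO-L1 (1.68 to 2.50, adjusted p = 1.17e-05). Within replicate numbers 1 to 4 the log2 difference from ASO-Ctr was 1.90, 0.94, 0.89 and 0.72, so number 1, where both other groups were low, gave the highest, and the fitted log2 fold change without it was 0.86.

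LATS2, the kinase that phosphorylates YAP and TAZ, measured 42.8, 31.2, 31.2 and 29.3 CPM in ASO-L1 replicates 1 to 4, 22.4, 21.8, 24.7 and 27.7 CPM in sO-L1, and 22.5, 23.3, 24.5 and 25.3 CPM in ASO-Ctr. All ASO-L1 libraries were above all others, but replicate 4 by little over sO-L1 replicate 4. The mean was 33.6 ± 6.19 CPM in ASO-L1, 24.2 ± 2.67 in sO-L1 and 23.9 ± 1.26 in ASO-Ctr (SD, n = 4 each). LATS2 rose 1.40-fold over ASO-Ctr (1.21 to 1.62, edgeR adjusted p = 0.000875) and 1.39-fold over sO-L1 (1.20 to 1.60, adjusted p = 0.000954). Its log2 differences from ASO-Ctr within a number lay between 0.21 and 0.93, and without replicate 1 the log2 fold change was 0.34, with the call kept.

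TAGLN, ACTA2 and TPM1 encode proteins of the actin cytoskeleton. TAGLN, an actin-binding protein of smooth muscle also called SM22, measured 25.5, 21.5, 30.7 and 26.6 CPM in ASO-L1 replicates 1 to 4, 8.76, 5.90, 9.93 and 10.3 CPM in sO-L1, and 9.88, 7.99, 11.4 and 10.7 CPM in ASO-Ctr. The lowest ASO-L1 library was well above the highest of either other group. The mean was 26.1 ± 3.77 CPM in ASO-L1, 8.73 ± 1.99 in sO-L1 and 9.99 ± 1.46 in ASO-Ctr (SD, n = 4 each). TAGLN rose 2.61-fold over ASO-Ctr (2.33 to 2.94, edgeR adjusted p = 4.15e-09) and 3.03-fold over sO-L1 (2.70 to 3.41, adjusted p = 9.62e-10). It was also among the steadiest members, with log2 differences from ASO-Ctr of 1.36, 1.42, 1.43 and 1.30 in the 4 replicate numbers.

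TPM1, a tropomyosin that winds along actin filaments, measured 223, 219, 236 and 243 CPM in ASO-L1 replicates 1 to 4, 187, 171, 203 and 209 CPM in sO-L1, and 191, 174, 207 and 211 CPM in ASO-Ctr. The ASO-L1 libraries were again all above the rest, by a narrow margin. With means of 230.3 ± 11.1 CPM in ASO-L1, 193 ± 17.03 in sO-L1 and 196 ± 16.8 in ASO-Ctr (SD, n = 4 each), the rise was 1.18-fold over ASO-Ctr (1.11 to 1.25, edgeR adjusted p = 0.000126) and 1.20-fold over sO-L1 (1.13 to 1.27, adjusted p = 5.27e-05). The log2 difference from ASO-Ctr stayed between 0.19 and 0.33 in the 4 numbers. Those differences had an SD of 0.064 (n = 4).

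ACTA2, the smooth muscle alpha actin, was close to the limit of detection. It had 7, 10, 7 and 5 reads in ASO-L1 replicates 1 to 4, 12, 9, 2 and 2 in sO-L1, and 0, 4, 3 and 1 in ASO-Ctr. In CPM these were 0.252, 0.242, 0.240 and 0.145 in ASO-L1, 0.343, 0.160, 0.0588 and 0.0654 in sO-L1, and 0, 0.0954, 0.0944 and 0.0290 in ASO-Ctr. The ASO-L1 libraries lay above all ASO-Ctr libraries but within the spread of the sO-L1 libraries, of which replicates 1 and 2 were high and 3 and 4 low. The 29 reads in ASO-L1 against 8 in ASO-Ctr gave a ratio of 3.60 (95% interval 1.60 to 9.10, counting error only) and a difference in mean CPM of 0.165 (exact permutation test, two-sided, p = 0.0286, the smallest that 70 splits can give). That test ignores the replicate numbers, and permuting within the 4 numbers, a test added after seeing the data, gave an exact p of 0.125, the smallest possible there. In an edgeR fit with no filter its adjusted p was 0.0587, and in limma on the authors' log2 values, which the authors had batch-corrected, it was 0.00707. Against sO-L1, with 25 reads, the ratio was 1.36 (0.770 to 2.42) and the exact permutation p was 0.514. ACTA2 shares most of its coding sequence with the other actin genes, so reads placed there are uncertain at this level.

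**Figure D2:**
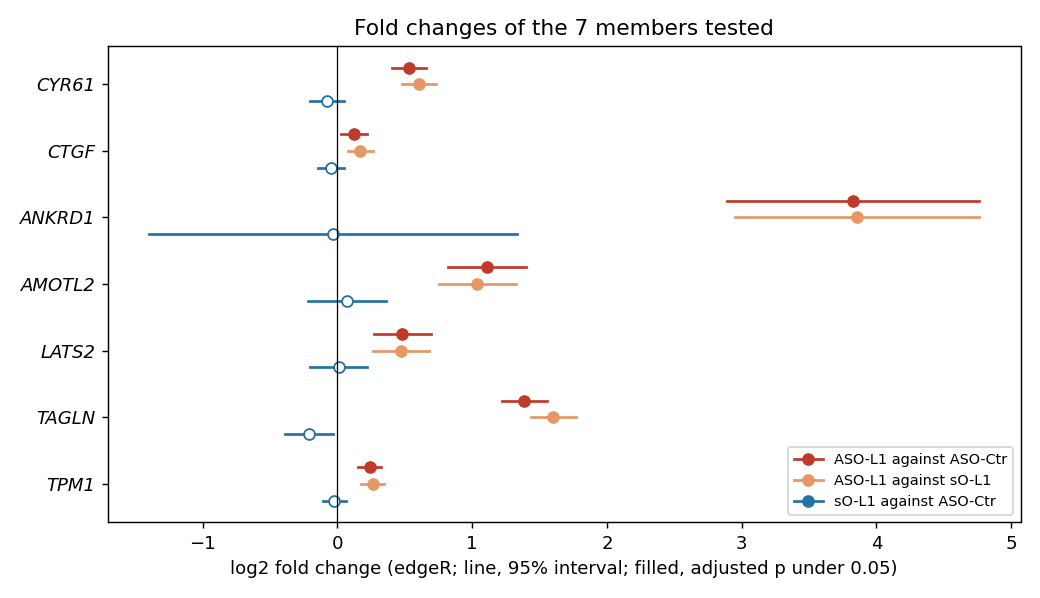
Log2 fold change (horizontal axis) of the 7 members tested in ASO-L1 against ASO-Ctr, ASO-L1 against sO-L1 and sO-L1 against ASO-Ctr, with 95% intervals as lines and filled points for adjusted p under 0.05. Both ASO-L1 comparisons lie right of 0 for every gene, from 0.12 for CTGF to 3.86 for ANKRD1, and the sO-L1 comparison lies at 0 within its interval except for TAGLN (-0.21, not called).

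Between sO-L1 and ASO-Ctr 0 of the 7 members were called by edgeR, where 0.29% of all genes were (0.0695% higher and 0.22% lower, 0% higher by over 2-fold). Libraries of the 2 groups overlapped for all 7, while 1.24% of all genes had all 4 sO-L1 libraries above and 1.99% all 4 below. At an unadjusted p under 0.05 edgeR had 1 member, DESeq2 1, and limma on the authors' log2 values 2 of 8, with 0 called by DESeq2 or limma. The 1 member in edgeR was TAGLN, lower in sO-L1 than in ASO-Ctr in 4 of 4 replicate numbers (0.862-fold, 0.762 to 0.975, unadjusted p = 0.0208, adjusted p = 0.568). For the others, the intervals of the fold in sO-L1 over ASO-Ctr were 0.868 to 1.04 for CYR61, 0.906 to 1.03 for CTGF, 0.859 to 1.28 for AMOTL2, 0.869 to 1.17 for LATS2 and 0.929 to 1.04 for TPM1. ANKRD1 had too few reads in both groups to narrow the interval beyond 0.380 to 2.52. ACTA2 had 25 reads in sO-L1 and 8 in ASO-Ctr, a ratio of 2.64 (1.15 to 6.77, counting error only), with an exact permutation p of 0.2. Its libraries overlapped between these groups. ACTA2 was among the members with an unadjusted p under 0.05 in limma (log2 fold change 1.37, unadjusted p = 0.0255, adjusted p = 0.303). In the order of group means, ASO-L1 was thus the highest for each member, and no difference between sO-L1 and ASO-Ctr passed the adjusted test.

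The authors' deposited table for ASO-L1 against sO-L1 gives log2 fold changes close to those computed here. In the authors' deposited table they are 0.60 for CYR61, 4.13 for ANKRD1, 1.63 for TAGLN, 0.99 for AMOTL2, 0.47 for LATS2 and 0.26 for TPM1, each at an adjusted p of 0.000886 or lower. The authors' deposited table has CTGF at 0.16 with an adjusted p of 0.0967 and ACTA2 at 0.64 with an adjusted p of 0.386, so neither passes 0.05 there.

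**Figure D3:**
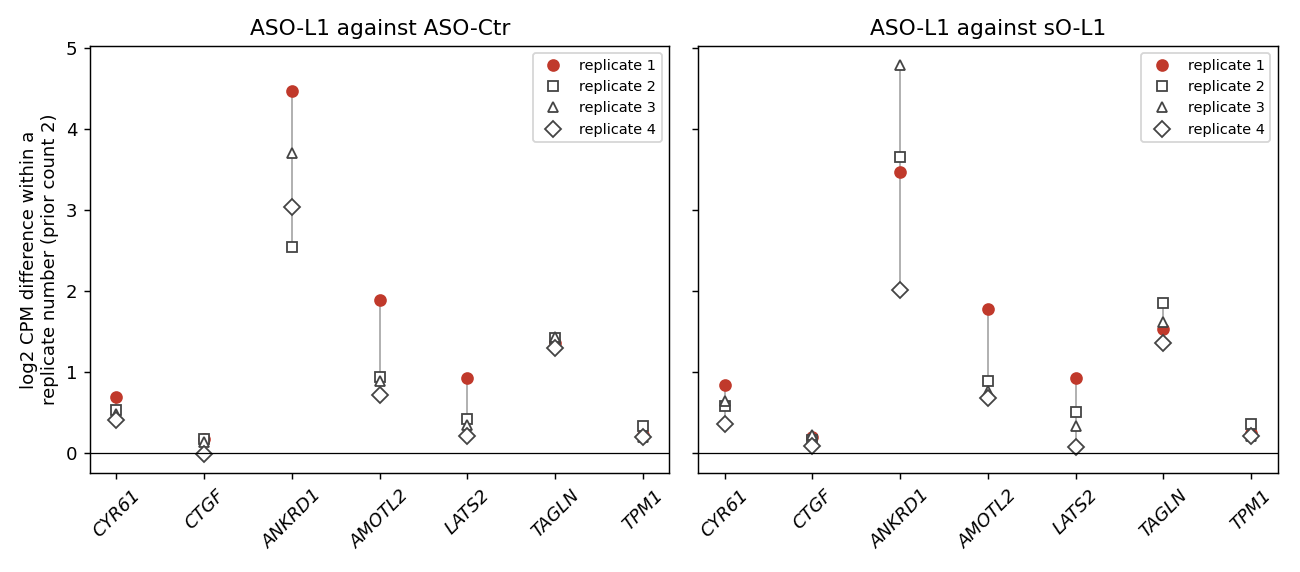
Difference in log2 CPM (vertical axis, prior count 2) between libraries of the same replicate number, for ASO-L1 against ASO-Ctr and ASO-L1 against sO-L1, 1 point per replicate number and member. AMOTL2 and LATS2 are highest in number 1 (1.90 and 0.93 against ASO-Ctr), TAGLN and TPM1 spread little, and CTGF in number 4 is at -0.01.

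Members differed in how evenly the 4 replicate numbers moved, and number 1 gave the largest rise over ASO-Ctr in CYR61, ANKRD1, AMOTL2 and LATS2. Against ASO-Ctr, CYR61 differed by 0.69, 0.53, 0.48 and 0.41 on the log2 scale in numbers 1 to 4, and LATS2 by 0.93, 0.42, 0.35 and 0.21. ANKRD1 differed by 4.47, 2.55, 3.71 and 3.04, values that rest on few reads in ASO-Ctr. Against sO-L1, AMOTL2 differed by 1.78, 0.89, 0.77 and 0.68, and LATS2 by 0.93, 0.51, 0.34 and 0.08. Replicate numbers have no order of their own, and numbers 2, 3 and 4 showed the same direction as number 1 for these genes in both comparisons. Leaving out replicate 1 ended none of the calls of CYR61, ANKRD1, TAGLN, AMOTL2, LATS2 and TPM1.

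Other genes listed with the same pathways were called in both directions, in shares near those of all genes for several lists. Of 17 other genes of a common YAP/TAZ target signature, 16 were tested against ASO-Ctr, with 7 higher, 1 lower and 8 not called, in a background of 21.2% higher and 23.1% lower. Their median log2 fold change was 0.18, beside -0.0028 for all genes. GADD45A, a stress-induced growth arrest gene that is also a target of p53 and ATF4, measured 41.5 ± 16.7 CPM in ASO-L1, 10.5 ± 1.09 in sO-L1 and 10.4 ± 1.32 in ASO-Ctr (SD, n = 4 each; log2 fold change 1.94 against ASO-Ctr, edgeR adjusted p = 3.70e-08). F3, the tissue factor of coagulation, measured 11.7 ± 4.51 CPM in ASO-L1, 5.48 ± 0.972 in sO-L1 and 5.16 ± 0.761 in ASO-Ctr (1.13, adjusted p = 4.83e-06). The kinase gene NUAK2 (0.95, adjusted p = 1.59e-05) and FJX1, a relative of the fly Four-jointed kinase (0.78, adjusted p = 1.75e-06), rose as well. TGFB2, a growth factor gene, fell (log2 fold change -0.70, adjusted p = 0.0209), at 0.720 ± 0.229 CPM in ASO-L1, 0.935 ± 0.296 in sO-L1 and 1.16 ± 0.237 in ASO-Ctr, a call that did not hold in 8 of 16 fits with libraries left out (highest adjusted p = 0.106). Against sO-L1, 7 of the 16 rose and 0 fell.

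Of 24 other SRF/MRTF targets, 23 were tested, with 6 higher, 4 lower and 13 not called against ASO-Ctr, shares near the 21.2% higher and 23.1% lower of all genes. Their median log2 fold change was 0.01. CNN1, the smooth muscle calponin, measured 14.3 ± 2.63 CPM in ASO-L1, 6.84 ± 0.649 in sO-L1 and 6.59 ± 1.27 in ASO-Ctr (1.11, edgeR adjusted p = 9.83e-07). PDLIM7, a scaffold of actin fibres (0.74, adjusted p = 7.06e-08), and ACTA1, the skeletal muscle actin (0.74, adjusted p = 1.29e-06), rose too. MYLK, the myosin light chain kinase, fell, with 7.82 ± 1.45 CPM in ASO-L1, 12.3 ± 1.30 in sO-L1 and 15.2 ± 0.580 in ASO-Ctr (-0.95, adjusted p = 1.81e-06). TLN1, which couples integrins to actin (-0.45, adjusted p = 3.04e-07), FHL1, a LIM-domain protein of muscle (-0.39, adjusted p = 0.000552), and CNN2, a calponin (-0.13, adjusted p = 0.0203), were the other 3 that fell. The CNN2 call did not hold in 5 of 16 such fits (highest adjusted p = 0.0907). It was also lost in edgeR without the replicate number (adjusted p = 0.0676) and with only the 2 groups in the fit (0.0631). Against sO-L1, 9 rose, 5 fell and 9 were not called.

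The factors that act on these targets moved in different directions. YAP1 measured 286 ± 27.4 CPM in ASO-L1, 302 ± 37.4 in sO-L1 and 294 ± 43.4 in ASO-Ctr and was not called (0.979-fold of ASO-Ctr, 95% interval 0.919 to 1.04, edgeR adjusted p = 0.597). Without replicate 1 it was called lower against ASO-Ctr (log2 fold change -0.077, adjusted p = 0.0415). Against sO-L1 it was not called (-0.07, adjusted p = 0.177), but it was without replicate 1 (adjusted p = 0.0180), without ASO-L1 replicate 1 (0.0122) and with limma on the authors' log2 values (0.0140). WWTR1, the gene of TAZ, measured 33.2, 41.9, 45.1 and 50.1 CPM in ASO-L1 replicates 1 to 4, 70.0, 74.4, 77.2 and 82.9 CPM in sO-L1, and 69.2, 73.3, 72.0 and 75.7 CPM in ASO-Ctr. Every ASO-L1 library was below every other library, as in 17% of all genes against ASO-Ctr and 16.2% against sO-L1. WWTR1 fell by 0.78 on the log2 scale against ASO-Ctr (adjusted p = 8.41e-08) and by 0.84 against sO-L1 (adjusted p = 3.82e-08). TEAD4, a DNA-binding partner, rose (0.50, adjusted p = 5.00e-07), with 91.0 ± 7.07 CPM in ASO-L1, 53.7 ± 4.01 in sO-L1 and 64.0 ± 2.33 in ASO-Ctr. TEAD4 was also the 1 gene of all these lists called between sO-L1 and ASO-Ctr (-0.25, adjusted p = 0.0348), and that call did not hold in 12 of 16 fits with libraries left out, nor without the replicate number (adjusted p = 0.538). TEAD2 (-0.41) and TEAD1 (-0.16) fell against ASO-Ctr, as did VGLL4 (-0.21), which competes with YAP for TEAD proteins, and VGLL3 rose (0.30). Of these calls, VGLL3 was lost in 7 of 16 fits with libraries left out (highest adjusted p = 0.163), TEAD1 in 2 (0.0994) and VGLL4 without replicate 3 (0.0708). The VGLL3 call was also lost in edgeR without the replicate number (adjusted p = 0.0594) and with only the 2 groups in the fit (0.0645). In this list of 9 genes 8 were tested, with 2 higher, 4 lower and 2 not called in both ASO-L1 comparisons, where 21.2% and 21.1% of all genes were higher and 23.1% and 22.9% lower. YAP1 and SRF are named here after their values were seen.

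Of 20 Hippo kinases and regulators, 5 rose, 6 fell and 9 were not called against ASO-Ctr, close to the background of 21.2% higher and 23.1% lower. The ones that rose were WTIP (0.81, edgeR adjusted p = 3.54e-05) and AJUBA (0.74, adjusted p = 1.19e-06), LIM-domain proteins that bind and restrain LATS kinases, LATS1 (0.47, adjusted p = 0.000277), TAOK3 (0.27, adjusted p = 0.00817) and the scaffold gene SAV1 (0.19, adjusted p = 0.00614). Among those that fell, STK3, which encodes the kinase MST2, measured 9.73 ± 2.13 CPM in ASO-L1, 15.3 ± 1.76 in sO-L1 and 17.1 ± 2.29 in ASO-Ctr (-0.82, adjusted p = 2.06e-06). MAP4K4, a kinase that acts in parallel to MST kinases, fell too (-0.62, adjusted p = 2.25e-07). The TAOK3 call was lost without replicate 3 (adjusted p = 0.0616). Against sO-L1 the counts were 7 higher, 5 lower and 8 not called.

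Of 18 genes of SRF, its cofactors and actin control, 17 were tested, and 5 rose, 4 fell and 8 were not called against ASO-Ctr, again near the shares of all genes (21.2% and 23.1%). RHOB, a small GTPase that is itself induced by stress and growth signals, measured 224, 198, 226 and 171 CPM in ASO-L1 replicates 1 to 4, 91.9, 98.5, 119 and 100.8 CPM in sO-L1, and 84.7, 98.3, 106 and 97.2 CPM in ASO-Ctr. Each ASO-L1 library exceeded all others, a rise of 2.12-fold over ASO-Ctr (1.91 to 2.35, edgeR adjusted p = 1.14e-08). The ETS-family SRF cofactors ELK4 (0.74, adjusted p = 5.94e-05) and ELK3 (0.48, adjusted p = 0.000130), the kinase gene ROCK2 (0.47, adjusted p = 0.000352) and the actin-binding gene PFN1 (0.19, adjusted p = 0.00104) also rose. MKL1, the gene of MRTF-A, fell (-0.36, adjusted p = 0.000459), as did ROCK1 (-0.31, adjusted p = 3.21e-05), SCAI, a repressor of MRTF (-0.28, adjusted p = 0.0199), and the kinase gene LIMK1 (-0.20, adjusted p = 0.00915). The SCAI call did not hold in 6 of 16 fits with libraries left out (highest adjusted p = 0.179) and the LIMK1 call without replicate 3 (adjusted p = 0.0521). The SCAI call was also lost in edgeR with only the 2 groups in the fit (adjusted p = 0.0536). SRF measured 114 ± 5.33 CPM in ASO-L1, 103.0 ± 7.90 in sO-L1 and 111 ± 8.50 in ASO-Ctr and was not called against ASO-Ctr (0.04, adjusted p = 0.520), though it was against sO-L1 (0.14, adjusted p = 0.0111). That call did not hold without replicate 2 (adjusted p = 0.0788), without ASO-L1 replicate 2 (0.0693) or without the replicate number in the model (0.114). Against sO-L1 the list had 7 higher, 3 lower and 7 not called.

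**Figure D4:**
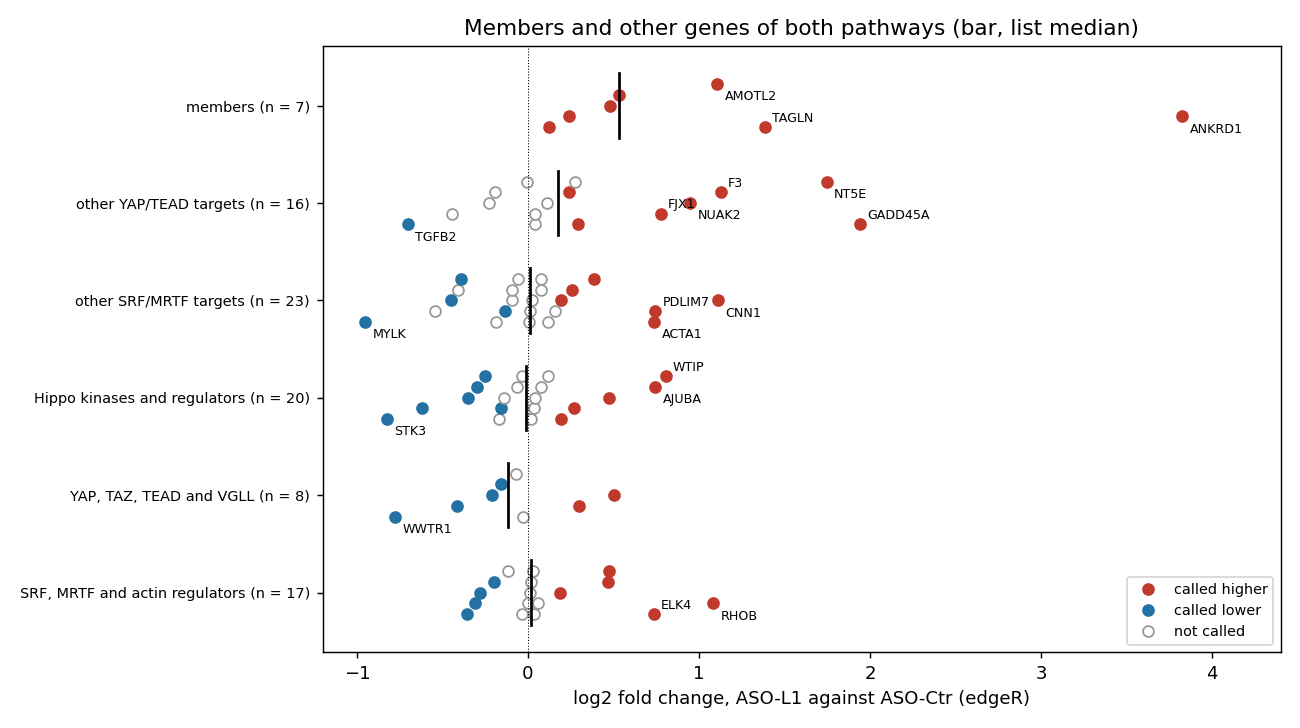
Log2 fold change in ASO-L1 against ASO-Ctr (horizontal axis) for the members and for the other genes of both pathways, 1 row per list, with red points for genes called higher, blue for genes called lower, open points for genes not called and a bar for each list's median. The members lie right of 0, with a median of 0.53, while the other lists straddle 0, with medians from -0.12 for YAP, TAZ, TEAD and VGLL genes to 0.18 for other YAP/TEAD targets.

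Across the 12 libraries, each centred on its replicate number, the genes with the most similar profile were compared among 12550 genes as a description. NUAK1 (Pearson r = 0.996) and TCEB3 (0.996) were closest to CYR61, DPH1 (0.994) and TUBB2A (0.994) to TAGLN, CHD2 (0.997) and SNX30 (0.996) to AMOTL2, and NR1D2 (0.996) and FAM178A (0.995) to LATS2. COPRS (0.992) and SNX8 (0.990) were closest to TPM1, NCAPH2 (0.989) and NLE1 (0.983) to CTGF, RBM4 (0.985) and RP11-244F12.3 (0.985) to ANKRD1, and SPTSSA (0.964) and ERH (0.959) to ACTA2. The 12 libraries carry the same contrast between groups, which all these profiles contain.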

How the data were processed

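Poly(A) RNA of 12 libraries (3 groups of 4) was sequenced as directional libraries. The authors deposited a table of raw counts, from which duplicate reads had been removed, per the labels. The submitters' processing notes name hg19, featureCounts (Subread 1.5.0), TopHat2 2.0.13 and Trim Galore 0.4.0. The annotation and the strand setting of the counting are not given in the sources used here, so overlapping antisense genes cannot be told apart, and removing duplicates compresses abundant genes. The authors also deposited log2 normalized values with a batch correction, per the labels, and a table of log2 fold changes with p-values and adjusted p-values for ASO-L1 against sO-L1. Its other score columns, as the authors deposited them, were not used.

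The count test was run with edgeR 4.0.16 in R 4.3.3 (TMM, filterByExpr with a minimum count of 10, two-sided quasi-likelihood F-tests, group and replicate number, all 12 libraries, Benjamini-Hochberg over 17264 genes, called under 0.05). The filter needs about 0.289 CPM in 4 libraries, which ANKRD1 reached in 4 ASO-L1, 1 sO-L1 and 0 ASO-Ctr libraries. Intervals (95%) use the moderated degrees of freedom, 6 residual plus a prior of 10.8. Levels are TMM-scaled CPM, and within-number differences use a prior count of 2. ACTA2, under the filter, was tested with exact permutation tests. Intervals of read ratios and floors of 3 reads cover counting error only.

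Libraries of the same replicate number deviated together (r from 0.215 to 0.726 in 12 pairs, against a median of -0.225 in 36 pairs of different numbers, over 10549 genes averaging 200 counts or more), and the labels name a batch correction, so the number was kept as a block. 0 pairs of libraries were identical. The members and lists were chosen with earlier results of these data known. Named are the members, from each list the up to 4 called genes of lowest adjusted p against ASO-Ctr, all where 5 or fewer were called in 1 direction, and the 2 genes of average log2 CPM of at least 1 most like each member. The procedure was tested on simulated data with no effect of the replicate number and far fewer changed genes than were called here. That test therefore does not cover the block. Alternatives were DESeq2 1.42.0, limma 3.58.1 on the log2 table, other scalings, no filter, no block, only 2 groups, and leaving out libraries.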

Additional observations from a re-analysis of the deposited data

Results flagged for a closer look

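In 4 of the 24 groups of 4 libraries (8 members in 3 groups), 1 library stood far from the other 3 by Dixon's criterion, which chance meets in about 1 in 20 groups. LATS2 measured 42.8 CPM in ASO-L1 replicate 1, against 29.3 to 31.2 CPM in the other ASO-L1 libraries. ACTA2 measured 0.145 CPM (5 reads) in ASO-L1 replicate 4, against 0.240 to 0.252 CPM in the others. CYR61 measured 52.0 CPM in sO-L1 replicate 1, against 69.7 to 70.8 CPM. CTGF measured 86.1 CPM in ASO-Ctr replicate 1, against 104 to 107 CPM. Of these libraries, 3 carry the replicate number 1.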

How the results depend on the processing

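Calls of CYR61, ANKRD1, TAGLN, AMOTL2, LATS2 and TPM1 held in both ASO-L1 comparisons under every alternative run for the tested members, and CTGF lost its call in the settings named in the report. Members called numbered 6 to 7 when libraries were left out, in each ASO-L1 comparison, and 6 without the replicate block, when all genes called numbered 5893 against ASO-Ctr and 5782 against sO-L1 (7652 and 7602 with it). Limma on the log2 table called 8 members against ASO-Ctr, and 9318 of all genes. It fitted the group alone to values already batch-corrected, so its p-values do not count that correction. The added member was ACTA2, which edgeR with no filter did not call (adjusted p = 0.0587). Between sO-L1 and ASO-Ctr 0 members were called under any alternative, while all genes called, 50 in the fit reported, numbered 141 with no filter, 95 with DESeq2, 17 without the replicate block, 640 with only the 2 groups, 209 with limma and 10 to 410 when libraries were left out. Without the block, the YAP, TAZ, TEAD and VGLL list had 0 calls in that comparison in place of 1. Uncalled log2 fold changes that turned were ANKRD1 in sO-L1 against ASO-Ctr (0.00033 without the block, -0.87 to 0.58 with libraries left out), and, with libraries left out, AMOTL2 (-0.050 to 0.19) and LATS2 (-0.079 to 0.089) in the same comparison, CNN2 (-0.0031 to 0.067) and LIMK1 (-0.10 to 0.018) against sO-L1, and YAP1 against ASO-Ctr (-0.077 to 0.00038). The cause was not tested. Depth limits ACTA2 and the control levels of ANKRD1, which lie near 3 reads.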
